A study of Mus musculus with 24 samples.

Results

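Serpina3n, Serpina3i, Serpina3g, Serpina3f and Serpina3c are serine protease inhibitors (serpins) of a gene cluster on mouse chromosome 12. They were selected by gene symbol, and 7 of the 55681 non-control probes of the array carry one of these 5 symbols. The study measured total RNA of mouse right ventricles (strain label M/FVB/10-12) on 1-colour Agilent expression arrays, each hybridised with Cy3-labelled RNA of 1 sample. The groups were 5 samples at month 1 after PSPI, 5 at month 2, 4 at month 3 and 10 sham samples, 24 arrays in all. PSPI is, by the labels, an operation that puts a pressure load and a volume load on the right ventricle. The sham labels give no month, so each PSPI month is set against all 10 shams. What M and 10-12 stand for in the strain label, which all groups share, is not explained there, and no altered allele is named for any group in the sources used here.

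Where humans have the single gene SERPINA3, which encodes alpha-1-antichymotrypsin, repeated duplication gave the mouse a cluster of related genes. Their products trap proteases in a covalent complex after the protease cuts an exposed loop, and the sequence of that loop decides which protease is caught. In the liver, Serpina3n and its relatives belong to the acute phase proteins, which are made in response to interleukin-6 acting through STAT3, to interleukin-1 and to glucocorticoids, but Serpina3n is also made outside the liver by injured tissue. Serpina3n inhibits granzyme B and leukocyte elastase, and Serpina3g, also called Spi2A, inhibits the lysosomal cathepsins B and L in the cytosol and is induced in activated macrophages and T cells.

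The 5 genes were put together with their PSPI and sham signals on these same arrays already known. Their differences from sham are therefore given as a description, without support from a p-value. A level below is log2 of the processed signal minus the same array's 75th percentile of log2 signal over 16943 probes that the scanner software marked as detected (well above background) on each of the 24 arrays, so that 0 is that percentile. Levels of different probes are not comparable with each other.

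Some arrays limit what can be said. Of 276 pairs of arrays, 8 pairs, always of the same group and in 6 cases on different slides, lay closer together than any other pair (a median absolute difference of at most 0.208 over the 50 most variable probes after cyclic loess, against at least 0.274, a measure set after the arrays were seen), and counting each such set once leaves 17 samples. Sham replicates 3, 4 and 10 form one of these sets and carry the atrial myosin light chain Myl7 at 3.48 to 3.53, against -7.89 to -3.59 on the other 7 sham arrays. The ventricular beta myosin heavy chain Myh7, a gene of the loaded heart in mice, was at 1.62 to 2.52 on 9 arrays (3 of month 1 and 6 sham) and at 4.67 to 5.91 on the other 15. All 10 cardiomyocyte markers listed passed the filter on dim probes and could be tested, whereas all 4 lung epithelium markers failed it. Between 36.1% and 56.1% of the probes of an array were well above background. Because whole ventricle was profiled, fewer cells of a type and less RNA per cell cannot be told apart.

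The array design, in mm9 coordinates, places the Serpina3n probe A_51_P159453 at chr12:105651918-105651977, the Serpina3i probe A_55_P1966774 at chr12:105504738-105504797 and the Serpina3g probe A_51_P326191 at chr12:105480045-105480104. The probe A_55_P2142226, named Serpina3f in the files, lies at chr12:105492556-105492615. That is 823 bases from the start of the Serpina3h probe and 33567 bases from the start of the other Serpina3f probe, and the design lists it for transcripts of both Serpina3f and Serpina3h. The minus strand probe of Serpina3c, A_51_P157112, lies at chr12:105385352-105385411. Exon and UTR positions of the probes are not assigned here. The first 3 sequences are shown because the main results rest on them, and none shares more than 34 bases in the best alignment with any other Serpina3 probe of the array. Probes were aligned only with each other, so whether these 3 also bind other transcripts of the cluster was not tested.
Serpina3n A_51_P159453: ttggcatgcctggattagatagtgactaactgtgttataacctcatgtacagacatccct
Serpina3i A_55_P1966774: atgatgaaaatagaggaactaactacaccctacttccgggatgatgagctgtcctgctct
Serpina3g A_51_P326191: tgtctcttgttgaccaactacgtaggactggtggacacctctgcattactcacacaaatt

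The next 4 sequences are shown because they are close to a neighbour, and capitals mark the bases that are identical in the alignment of each pair. The Serpina3f probe A_55_P2142226 and the Serpina3b probe share 45 of 50 aligned bases. The second Serpina3i probe, A_55_P2142232, and the Serpina3h probe share 53 of 58. Signals of these probes can therefore hold RNA of more than one gene of the cluster.
Serpina3f A_55_P2142226: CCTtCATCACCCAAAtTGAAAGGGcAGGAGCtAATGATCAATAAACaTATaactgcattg
Serpina3b A_55_P2161450: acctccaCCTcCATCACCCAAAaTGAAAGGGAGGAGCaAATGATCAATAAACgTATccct
Serpina3i A_55_P2142232: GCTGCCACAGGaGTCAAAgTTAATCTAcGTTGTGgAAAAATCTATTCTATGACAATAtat
Serpina3h A_55_P2142222: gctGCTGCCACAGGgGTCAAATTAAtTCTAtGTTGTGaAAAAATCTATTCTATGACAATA

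Serpina3n, the gene of the family best known from injured tissue, was well above background on all 24 arrays and had a higher mean in every PSPI month than in sham. Its levels were -2.13, -2.13, -2.25, -1.19 and -2.02 at month 1, -0.48, -1.02, -1.56, -1.98 and -0.54 at month 2, and -1.44, -1.18, -1.05 and -2.40 at month 3. In sham the lowest level was -3.04, the median -2.67 and the highest -2.21. All 5 month 2 arrays lay above every sham array, as did 4 of 5 at month 1 and 3 of 4 at month 3, and the 2 exceptions were month 1 replicate 3 and month 3 replicate 4. The means were -1.94 ± 0.43 at month 1 (SD, n = 5), -1.11 ± 0.65 at month 2 (n = 5), -1.52 ± 0.61 at month 3 (n = 4) and -2.61 ± 0.28 in sham (n = 10). The fitted difference from sham was 0.67 ± 0.24 at month 1, 1.49 ± 0.24 at month 2 and 1.09 ± 0.26 at month 3 (log2 ± SE), which is 1.59-fold, 2.82-fold and 2.13-fold. The SD within each PSPI month was larger than in sham, and it was largest at month 2. At month 1 it rested on replicate 4 (-1.19), with the other 4 arrays between -2.25 and -2.02. Differences in spread were not tested.

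Serpina3i, another gene of the cluster, also had a higher mean in every PSPI month than in sham. The levels of probe A_55_P1966774 were -4.81, -4.88, -5.24, -4.68 and -4.88 at month 1, -3.56, -4.50, -4.25, -4.38 and -3.79 at month 2, and -4.32, -3.79, -3.85 and -4.73 at month 3. In sham they had a lowest value of -6.25, a median of -5.66 and a highest value of -5.01, and 2 of the 10 sham arrays were not well above background. Every PSPI array except month 1 replicate 3 lay above every sham array. The differences from sham were 0.70 ± 0.19 at month 1, 1.50 ± 0.19 at month 2 and 1.43 ± 0.20 at month 3, or 1.63-fold, 2.84-fold and 2.69-fold. The probe passed the filter through its PSPI groups and not through sham, so detection after PSPI was a condition for keeping it. With normexp background correction its difference over all months was smaller, as given in the last paragraph.

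Serpina3g, the cytosolic cathepsin inhibitor, stood out at month 3. Its levels there were -4.81, -4.07, -4.71 and -4.85, all well above background. At month 1 they were -6.30, -5.62, -6.99, -7.50 and -6.81, and at month 2 -6.15, -5.61, -7.34, -6.51 and -6.42, with 2 of 5 arrays well above background in each. Sham levels had a lowest value of -7.51, a median of -7.00 and a highest value of -6.43, and only 1 of 10 was well above background. The 4 month 3 arrays lay above all 20 other arrays. The difference from sham was 0.33 ± 0.26 at month 1, 0.56 ± 0.26 at month 2 and 2.36 ± 0.28 at month 3. With most sham signals not well above background no fold is given, and the month 3 difference was 0.65 with normexp background correction and 1.25 in the deposited table.

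The Serpina3f probe A_55_P2142226 was well above background on all 24 arrays. Its levels were -2.61, -3.63, -4.10, -4.13 and -2.66 at month 1, -2.05, -2.68, -2.56, -2.75 and -2.34 at month 2, and -2.11, -1.81, -1.97 and -2.53 at month 3. The sham arrays had a lowest level of -4.06, a median of -3.41 and a highest level of -2.55. Its differences from sham were -0.11 ± 0.27 at month 1, 0.84 ± 0.27 at month 2 and 1.21 ± 0.29 at month 3. The probe divided the arrays as Myh7 did, within groups as well. It was at -4.13 to -3.38 on the 9 arrays with lower Myh7 and at -2.99 to -1.81 on the 15 with higher Myh7, without overlap, and the part of Myh7 level in the difference from sham was not tested. The difference over all months was 0.65 ± 0.20, against 0.42 ± 0.24 with near-coincident arrays averaged and 1.13 ± 0.28 with slide as a block.

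**Figure D1:**
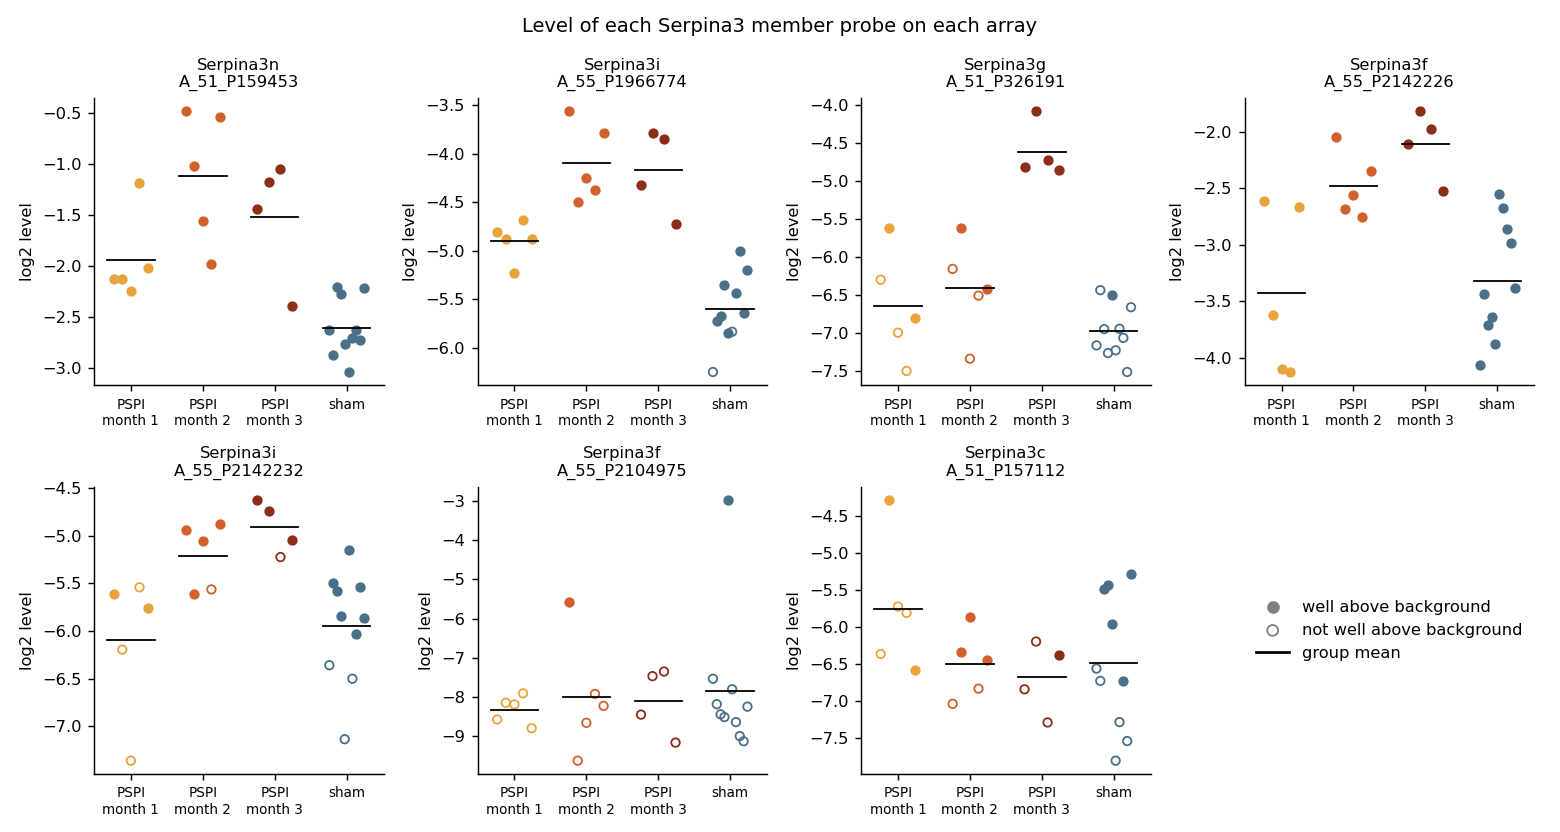
Level of each of the 7 probes on every array (log2 relative to the array's 75th percentile), in PSPI months 1, 2 and 3 and in sham. Points are arrays, filled where the probe was well above background and open where it was not, and bars are group means. The month 3 points of Serpina3g lie between -4.85 and -4.07, above every other array.

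The remaining 3 probes did not pass the filter, which asked that at least 1 group had the probe detected on all of its arrays. The second Serpina3i probe was well above background on 2 of 5, 4 of 5 and 3 of 4 arrays at months 1, 2 and 3 and on 7 of 10 in sham. Its means were -6.10 ± 0.75 at month 1, -5.21 ± 0.35 at month 2, -4.91 ± 0.28 at month 3 and -5.95 ± 0.58 in sham (SD, same n). Only the means of months 2 and 3 lay above the sham mean. Serpina3c, known as a kallikrein-binding protein, averaged -5.75 ± 0.90 at month 1, -6.50 ± 0.46 at month 2, -6.68 ± 0.49 at month 3 and -6.48 ± 0.91 in sham. These ranges overlap, and 11 of its 24 arrays were well above background. The other Serpina3f probe, A_55_P2104975, was well above background on 2 arrays, month 2 replicate 1 at -5.57 and sham replicate 5 at -2.96, and had group means of -8.33, -8.00 and -8.11 at months 1, 2 and 3 and -7.85 in sham. None of the 7 probes of the other 6 genes of the cluster on the array (Serpina3a, Serpina3b, Serpina3h, Serpina3j, Serpina3k and Serpina3m) passed the filter.

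Of the 4 members tested, 0 passed an adjusted p of 0.05 at month 1, 3 at month 2 (Serpina3n, Serpina3i and Serpina3f) and 4 at month 3, in limma with Benjamini-Hochberg adjustment over all 12550 genes. At month 1 limma called 0% of all genes in either direction, although 1522 genes had an unadjusted p under 0.05 and 1 gene was called after normexp correction and 1 in the deposited table. Of all genes, 14.5% were called at month 2 (8.13% lower) and 39.0% at month 3 (21.5% lower). Over all months 4 of 4 members were called, against 24.5% of all genes. The members were chosen on these contrasts, so nothing is read from their counts. The month 2 call of Serpina3f was lost with near-coincident arrays averaged (0.66, adjusted p = 0.228) and without the atrial shams (0.73, adjusted p = 0.133), and that of Serpina3n was lost with averaging (1.43, adjusted p = 0.0561). Genes with every PSPI array above every sham array made up 0.375% of all genes at month 1, when 0 of the 4 members did so, 1.50% at month 2, when Serpina3n and Serpina3i did, and 5.90% at month 3, when Serpina3i, Serpina3g and Serpina3f did. Over all 14 PSPI arrays 0 members and 0.0239% of all genes did.

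**Figure D2:**
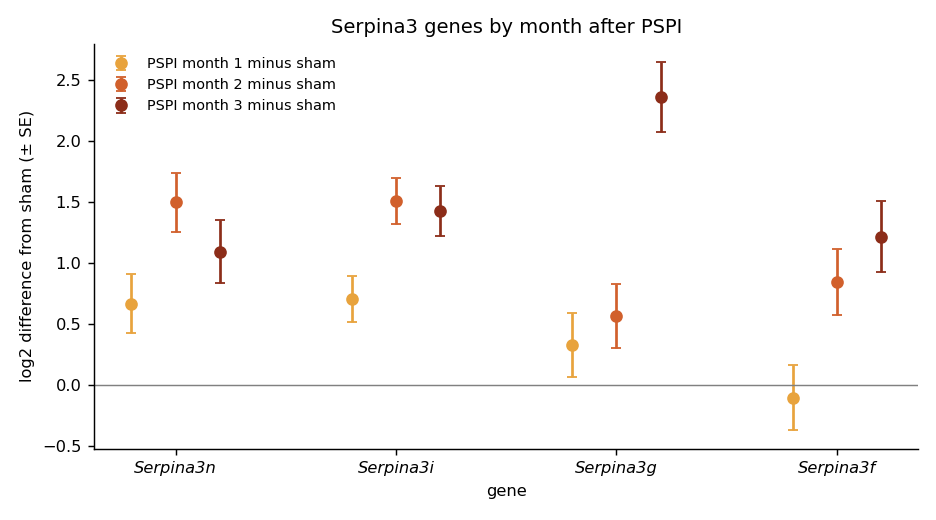
Log2 difference of each PSPI month from sham for the kept probe of Serpina3n, Serpina3i, Serpina3g and Serpina3f. Points are fitted differences and bars their standard errors. Serpina3n and Serpina3i are highest at month 2 (1.49 and 1.50), and Serpina3g is highest at month 3 (2.36).

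Between month 3 and month 2, a comparison without the sham arrays, the Serpina3g level was higher by 1.79 ± 0.32 at month 3. The probe passed the filter only through the month 3 arrays, so a higher level there was a condition for keeping it. The value is therefore a description with no test, and 3 of the 5 month 2 arrays were not well above background. The difference was 1.88 within slide 3 (3 arrays of month 3 and 1 of month 2) and 1.59 within slide 2 (1 array of month 3 and 4 of month 2). It shrank to 0.51 with normexp background correction and to 0.82 in the deposited table. Of the other 3 members tested, 0 were called in this contrast, and 18.9% of all genes were. Serpina3n differed by -0.40 ± 0.29 (adjusted p = 0.366, 95% interval -1.01 to 0.21) and Serpina3i by -0.08 ± 0.23 (adjusted p = 0.855, 95% interval -0.55 to 0.40). For Serpina3f the difference was 0.37 ± 0.33 (adjusted p = 0.464).

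Month 2 minus month 1 gave 0.83 ± 0.28 for Serpina3n (adjusted p = 0.263, 95% interval 0.25 to 1.40) and 0.80 ± 0.22 for Serpina3i (adjusted p = 0.181, 95% interval 0.35 to 1.25). For Serpina3f it was 0.95 ± 0.31 (adjusted p = 0.254) and for Serpina3g 0.24 ± 0.30 (adjusted p = 0.802). None of the 4 passed the test over all genes, in which 0.00797% (1 gene) did. By these tests the order of Serpina3n, month 2 over month 3 over month 1 over sham, has no step between neighbouring PSPI months that exceeds the error after adjustment.

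The arrays fell on 3 slides, with 7 shams and 1 month 1 array on slide 1, no sham on slide 2 and all 4 groups on slide 3. With slide as a block the difference over all months was 1.07 ± 0.28 for Serpina3n, 1.30 ± 0.22 for Serpina3i and 1.16 ± 0.31 for Serpina3g, against 1.08 ± 0.18, 1.21 ± 0.14 and 1.08 ± 0.20 without it. Within slide 3 alone it was 1.20, 1.30 and 0.96, with 1 array each for months 1 and 2. The month 1 array of slide 1 exceeded the mean of its 7 shams by 0.50 for Serpina3n, 0.80 for Serpina3i and 0.71 for Serpina3g. Each slide that held both PSPI and sham thus gave the same direction for these 3 genes. Without the 3 shams that carry atrial markers the difference over all months was 1.24 for Serpina3n.

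Across arrays Serpina3n and the Serpina3i probe A_55_P1966774 went together (Pearson r = 0.89, Spearman rho = 0.91, n = 24), and the correlation was 0.65 after group means were removed. The second Serpina3i probe, A_55_P2142232, which failed the filter, had r = 0.53 with Serpina3n and 0.25 after that removal. The 2 Serpina3i probes had r = 0.61 with each other and 0.32 after it. Serpina3g and Serpina3f followed Serpina3n less closely over the 24 arrays (r = 0.43 and 0.48), with 0.06 and 0.01 after removal of the group means. These values share arrays and group differences and are descriptions only. The gene most like Serpina3n among the 12549 others was Lcn2, which encodes the acute phase protein lipocalin 2 (r = 0.89, rho = 0.73, 0.82 with group means removed, and 0.88 over the 17 samples left after averaging). Lcn2 averaged -3.69 at month 1, -2.06 at month 2, -2.58 at month 3 and -3.87 in sham, and like Serpina3n it was highest on month 2 replicates 1 and 5, which are near-coincident arrays.

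Serpina3i, by its probe A_55_P1966774, came second in likeness, and 6 genes in all had r over 0.8 and 57 over 0.7. The next genes were Fcgr2b, an inhibitory receptor for immunoglobulin G (0.85), Ms4a4a and Ms4a6c, membrane proteins found in macrophages (0.83 and 0.81), and Csf2rb2 and Csf2rb, receptor subunits for interleukin-3 and related cytokines with similar sequences (0.81 and 0.80). Rassf8, Tent5b, the galectin gene Lgals3 and Alox5ap, needed for leukotriene synthesis, completed the 10 (0.79 to 0.80). Some leukocyte markers were higher after PSPI as well. Of the T and NK cell markers, 3 were tested of 8 listed and 0 were called over all months, with 24.5% of all genes called. Among B cell markers 1 of 1 tested (of 5 listed) rose, and among mast cell markers 1 of 2 (of 5 listed), while 11.0% of all genes rose. The B cell gene Cd79b lost its call in 12 of 36 alternatives. The mast cell gene Hdc averaged -4.05, -4.03 and -2.35 at months 1, 2 and 3 and -4.30 in sham. Cpa3, a mast cell marker that failed the filter, averaged -6.83, -7.41 and -8.09 at these months and -7.15 in sham. Of the 8 macrophage markers tested of 10 listed, 4 rose over all months (11.0% of all genes did), among them the complement gene C1qa (0.54 ± 0.11, adjusted p = 0.00230), and the mean level of the list, centred per gene, ranged from 0.10 to 0.26 at month 1, -0.28 to 0.37 at month 2, -0.29 to 0.36 at month 3 and -0.40 to 0.19 in sham. All 3 neutrophil markers tested of 9 listed rose over all months (the same 11.0% of all genes), S100a8 by 2.53 ± 0.33 and S100a9 by 2.48 ± 0.50. Across 36 alternatives the S100a8 difference ranged from 1.17 to 2.79 and that of S100a9 from 1.61 to 3.03. S100a8 was at -7.92 to -5.47 in sham. A probe could pass the filter through PSPI arrays alone, and detection of S100a8 by group is not given here. The third, Csf3r, averaged 2.82, 2.69 and 3.99 at months 1, 2 and 3 and 2.69 in sham. Its call was lost in 5 of 36 alternatives. The list means were -0.33 to 1.25, 0.61 to 1.45 and 0.20 to 1.80 at months 1, 2 and 3 and -2.55 to -0.37 in sham. Of the neutrophil genes that failed the filter, Mpo, Ngp and Cxcr2 were well above background on 0 of 24 arrays and Ltf on 1 at month 1. Camp was so on 2, 3 and 1 at months 1, 2 and 3 and on 2 in sham. The part of leukocytes in the Serpina3 levels was not tested.

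**Figure D3:**
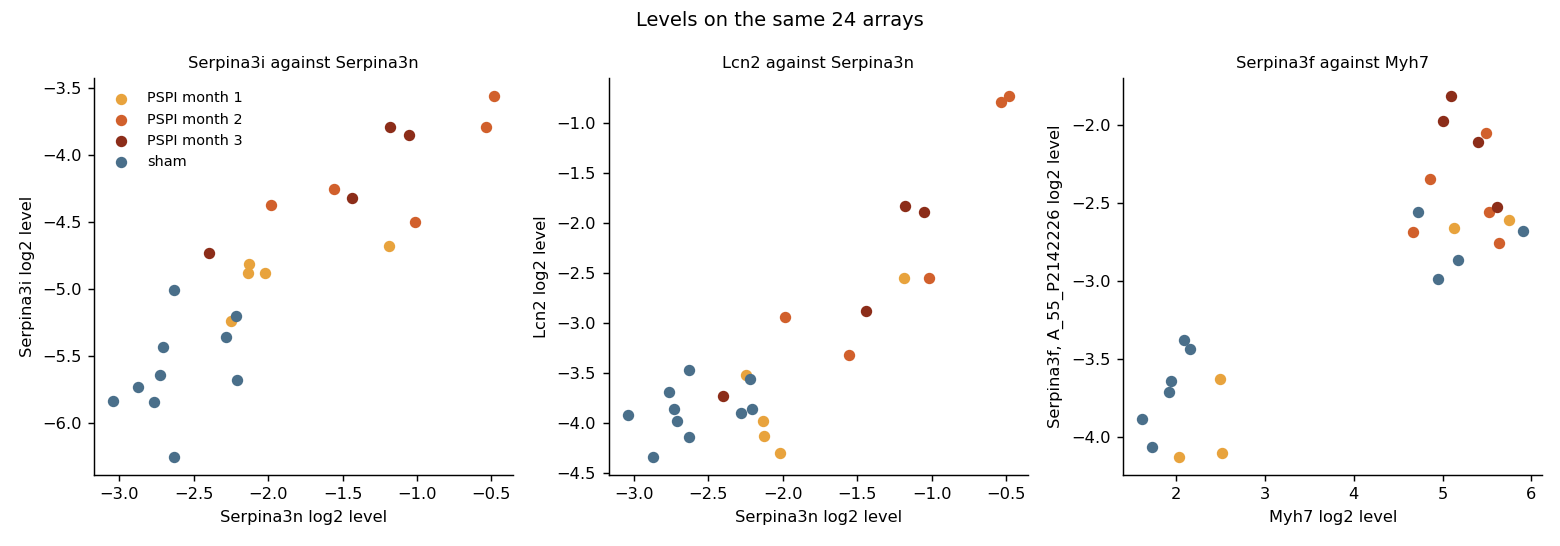
Levels on each of the 24 arrays (log2 relative to the array's 75th percentile), with PSPI months and sham in separate colours. The panels show the Serpina3i probe A_55_P1966774 against Serpina3n, Lcn2 against Serpina3n, and the Serpina3f probe A_55_P2142226 against Myh7. The first 2 panels run along a diagonal (r = 0.89 in each), and in the third the arrays form 2 clusters, with Serpina3f at or below -3.38 where Myh7 is at most 2.52.

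Among acute phase proteins 8 of the 14 genes tested (of 29 listed) rose over all months and 1 fell, with a median difference of 0.43, against 11.0% of all genes called higher, 13.6% called lower and a median of -0.01 over all genes. The complement genes C4b and Cfb rose by 1.38 ± 0.26 (adjusted p = 8.82e-04) and 1.22 ± 0.23 (adjusted p = 0.00111), both limma. The lipopolysaccharide-binding protein gene Lbp rose by 1.24 ± 0.27 (adjusted p = 0.00276), the metallothionein gene Mt2 by 1.04 ± 0.21 (adjusted p = 0.00149), and Lcn2 by 1.09 ± 0.29 (adjusted p = 0.00985). The call of Lcn2 was lost with near-coincident arrays averaged (1.02, adjusted p = 0.0856) and with slide as a block (1.00, adjusted p = 0.116). The gene that fell was Steap4, a metalloreductase (-0.42 ± 0.15, adjusted p = 0.0389), named after its value was seen. Hp, which encodes haptoglobin, differed by 0.35 ± 0.42 (adjusted p = 0.558). At month 2, 6 of the 14 rose (6.42% of all genes did), at month 3, 9 rose and 1 fell (17.4% of all genes rose), and 0 differed between month 3 and month 2. With near-coincident arrays averaged 5 rose over all months, and without the month 3 arrays 5 did.

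The other 15 listed acute phase genes had no kept probe. They include Crp, Apcs, Orm1, Orm2, Orm3, Saa2 and Saa4, whose probes were well above background on 0 of 24 arrays, and Saa3, well above it on 1, 3 and 0 arrays at months 1, 2 and 3 and on 3 in sham. Hepatocyte markers were tested for 4 of 10 genes, of which Ttr rose (1.02 ± 0.31, adjusted p = 0.0208). Its level averaged -7.63, -7.03 and -5.14 at months 1, 2 and 3 and -7.62 in sham. A probe could pass the filter through month 3 alone, so the Ttr difference is given as a description. Ttr lost its call with near-coincident arrays averaged (0.81, adjusted p = 0.216) and without month 3 (0.29, adjusted p = 0.579). The mean level of these markers ranged from -0.35 to 0.44, -0.51 to 0.40 and -0.36 to 0.86 at months 1, 2 and 3, and from -1.18 to 1.02 in sham. Albumin, Alb, was well above background on 1 of 14 PSPI arrays and 3 of 10 sham arrays.

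Interleukin-6 signalling lies upstream of the family in the liver. Of its 16 genes tested (of 21 listed), 1 rose and 1 fell over all months, while 11.0% of all genes rose and 13.6% fell. Stat3, the transcription factor of this pathway, rose by 0.25 ± 0.06 (adjusted p = 0.00689) and the interleukin-11 receptor gene Il11ra1 fell (-0.20 ± 0.06, adjusted p = 0.0164). Il11ra1 did not pass with near-coincident arrays averaged (-0.15, adjusted p = 0.169) and Stat3 did not without the month 3 arrays (0.15, adjusted p = 0.126). The list's median was 0.07 over all months, and it turned to just below 0 when arrays were scaled on all probes. Socs3, which encodes a feedback inhibitor induced by STAT3, was higher at month 2 than in sham by 0.63 (adjusted p = 0.0222) and lower at month 3 than at month 2 by 0.67 (log2, adjusted p = 0.0332). The oncostatin M receptor gene Osmr rose at month 3 by 0.53 (adjusted p = 0.00462). Il6 itself was well above background on 1, 3 and 2 arrays at months 1, 2 and 3 and on 1 in sham.

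In the list of interleukin-1, TNF and NF-kappaB signalling 3 of 9 genes rose over all months and 0 fell, against 11.0% and 13.6% of all genes. They were the NF-kappaB subunit gene Nfkb2 (0.62 ± 0.14, adjusted p = 0.00323), the inhibitory kinase gene Irak3 (0.33 ± 0.09, adjusted p = 0.00933) and the TNF receptor gene Tnfrsf1a (0.25 ± 0.07, adjusted p = 0.0154), of which Irak3 and Tnfrsf1a lost the call with near-coincident arrays averaged (adjusted p = 0.0615 and 0.0863). Of 11 glucocorticoid signalling genes, 0 rose and 2 fell over all months (13.6% of all genes fell), the receptor gene Nr3c1 (-0.30 ± 0.08, adjusted p = 0.0104) and the phosphatase gene Dusp1 (-0.48 ± 0.16, adjusted p = 0.0338). Nr3c1 lost the call with near-coincident arrays averaged (adjusted p = 0.0585), and Dusp1 lost it in 16 of the alternatives. At month 3 against sham, 4 of the 11 rose and 2 fell, with a median of 0.26, while 17.4% of all genes rose and 21.5% fell.

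Many interferon response genes were higher at month 3, the month in which Serpina3g was well above background on every array. Of 21 tested (of 29 listed), 14 rose and 1 fell at month 3 relative to month 2, with a median difference of 0.60, while 9.15% of all genes rose and 9.71% fell. Against sham, 2 rose at month 2, and 15 rose and 1 fell at month 3. The antiviral genes Ifit1, Ifit3 and Oasl2 were higher at month 3 than at month 2 by 1.71 (adjusted p = 1.01e-04), 1.13 (adjusted p = 0.00260) and 0.99 (adjusted p = 0.00187), and the class I light chain gene B2m by 0.46 (adjusted p = 0.0168). With near-coincident arrays averaged 7 rose and 1 fell in that contrast, and over all months 5 rose and 1 fell, against 10 and 1 in the full set. The gene that fell is Ifngr2, a subunit of the interferon gamma receptor (-0.63, adjusted p = 5.00e-05), named after its value was seen. Ifit1 and Serpina3n had r = 0.40 over 24 arrays. Over all months the Ifit1 difference from sham was 1.29, and it ranged from 0.63 to 1.75 across 36 alternatives. Ifit1 was at -6.35 to -5.19 in sham. A probe could pass the filter through month 3 alone, and detection of Ifit1 by group is not given here.

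**Figure D4:**
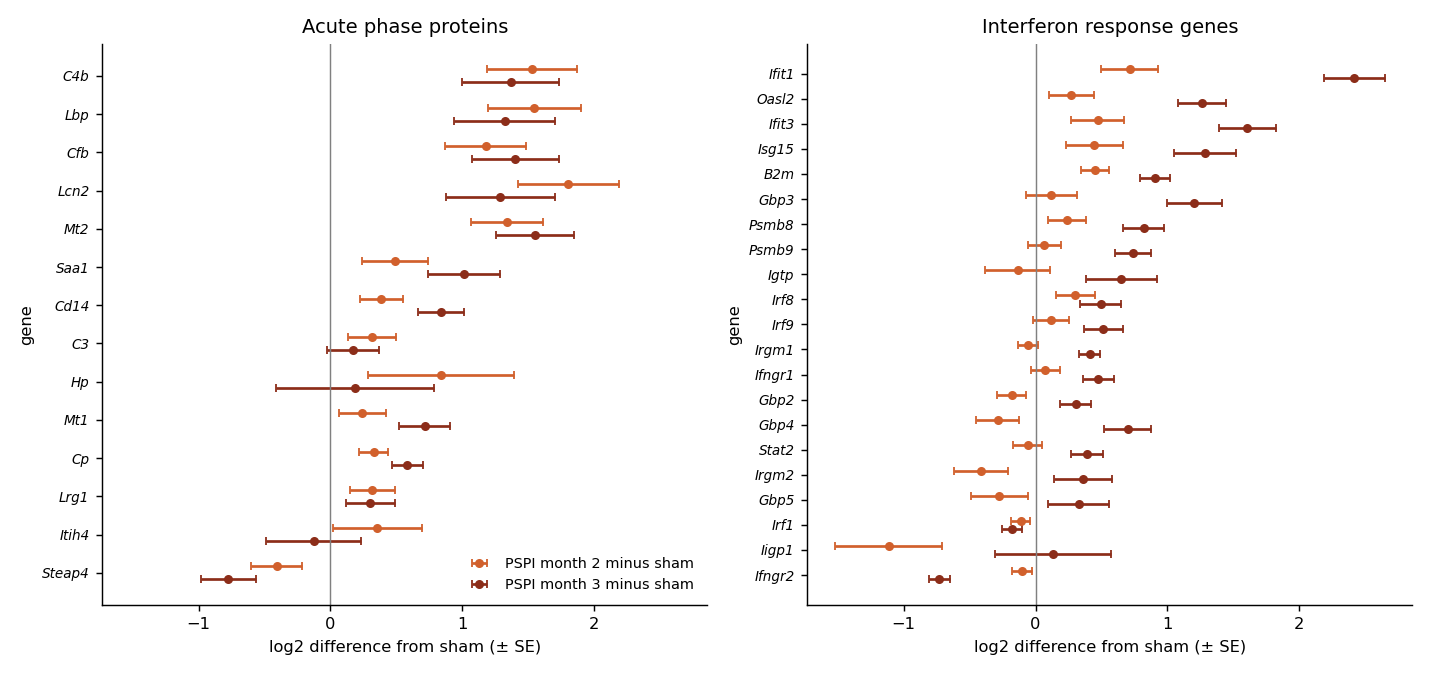
Log2 difference from sham at PSPI month 2 and month 3 of the genes tested in the lists of acute phase proteins and interferon response genes. Points are fitted differences and bars their standard errors. Ifit1 reaches 2.42 at month 3, against 0.71 at month 2.

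Of 15 leukocyte serine proteases, the kind of target that Serpina3n is known for, 4 were tested, and over all months 0 rose and 1 fell (13.6% of all genes fell), the granzyme gene Gzmm (-0.61 ± 0.16, adjusted p = 0.00836), which did not pass without the month 3 arrays (adjusted p = 0.0638) or with near-coincident arrays averaged (adjusted p = 0.121). Of the 4 proteases tested, 0 rose and 2 fell at month 2 against sham (8.13% of all genes fell). At month 3 against sham 2 rose and 1 fell (17.4% and 21.5% of all genes). Gzmb, which encodes granzyme B, was well above background on 0 of 24 arrays, and Ctsg, which encodes cathepsin G, on 1. Of 10 cysteine cathepsins, the targets of Serpina3g among them, 8 were tested and 2 called over all months, a share near the 24.5% of all genes called. Ctsb rose by 0.24 ± 0.07 (adjusted p = 0.0161) and Ctsz by 0.36 ± 0.10 (adjusted p = 0.0128), both lost with near-coincident arrays averaged (adjusted p = 0.0734 and 0.0759). Ctsl differed by -0.06 ± 0.07 (adjusted p = 0.594).

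Of 11 serpins of other clades tested (of 24 listed) 4 rose and 1 fell over all months, with a median of 0.25, while 11.0% of all genes rose and 13.6% fell. Serpine2, which encodes protease nexin 1, rose by 0.59 ± 0.10 (adjusted p = 5.10e-04), the C1 inhibitor gene Serping1 by 0.56 ± 0.11 (adjusted p = 0.00141) and Serpinb6a by 0.25. With near-coincident arrays averaged 2 rose. Of the other clade A serpins, the relatives of alpha-1-antitrypsin among them, 7 of 14 were tested and 0 were called over all months, with 24.5% of all genes called, and their median was -0.11. With slide as a block, the calls over all months of Stat3, Il11ra1, Irak3, Tnfrsf1a, Nr3c1, Ctsb, Serpinb6a and Ttr were lost (adjusted p from 0.0551 for Stat3 to 0.297 for Ctsb).

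Promoter windows of the RefSeq annotation (GRCm38.p6, 250 bases before to 50 after a start site) were found for 5 of 5 members, with 2 for Serpina3f. The windows of Serpina3c and Serpina3n are identical at 275 of 297 aligned positions (92.59%). Serpina3i and Serpina3n share 206 of 296 (69.59%). Capitals mark matches on either strand to TTCNNNGAA (STAT) or to GGG and TTTCC with 2 free bases between them (NF-kappaB), and no other searched motif matched in these 4 windows.
Serpina3n chr12:104406458-104406757 (+): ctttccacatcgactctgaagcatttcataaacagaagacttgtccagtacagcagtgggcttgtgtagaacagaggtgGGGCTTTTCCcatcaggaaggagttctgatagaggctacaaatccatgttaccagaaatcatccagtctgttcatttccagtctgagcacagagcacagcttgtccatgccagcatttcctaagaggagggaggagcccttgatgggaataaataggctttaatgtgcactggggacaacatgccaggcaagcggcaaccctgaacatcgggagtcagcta
Serpina3c chr12:104153823-104154122 (-): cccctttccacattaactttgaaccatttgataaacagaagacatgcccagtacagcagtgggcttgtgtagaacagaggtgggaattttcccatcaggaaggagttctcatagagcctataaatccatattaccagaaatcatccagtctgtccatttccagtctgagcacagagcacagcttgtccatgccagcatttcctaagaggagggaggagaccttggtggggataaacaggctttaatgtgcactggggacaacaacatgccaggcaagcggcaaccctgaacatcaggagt
Serpina3i chr12:104262872-104263171 (+): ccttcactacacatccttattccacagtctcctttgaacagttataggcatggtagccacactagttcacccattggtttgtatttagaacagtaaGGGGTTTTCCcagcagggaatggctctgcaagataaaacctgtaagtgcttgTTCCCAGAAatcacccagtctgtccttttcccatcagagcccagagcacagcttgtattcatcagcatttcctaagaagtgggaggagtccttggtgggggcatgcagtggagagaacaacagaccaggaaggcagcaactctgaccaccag
Serpina3g chr12:104235897-104236196 (+): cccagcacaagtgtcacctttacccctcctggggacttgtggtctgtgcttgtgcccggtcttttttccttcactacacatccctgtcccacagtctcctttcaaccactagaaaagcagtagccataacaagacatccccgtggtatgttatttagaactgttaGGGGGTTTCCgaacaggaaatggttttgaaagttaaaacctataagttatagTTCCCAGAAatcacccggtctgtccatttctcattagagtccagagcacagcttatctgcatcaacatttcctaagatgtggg

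The NF-kappaB letters begin at -171 from the start site in Serpina3n, -154 in Serpina3i and -85 in Serpina3g, and 1.63% of 32851 promoter windows hold them. The STAT letters begin at -102 in Serpina3i and -33 in Serpina3g and occur in 8.30% of windows. Serpina3f holds the STAT letters and the C/EBP letters TTGCNNAA (10.8% of windows). The glucocorticoid receptor letters, AGAACA and TGT with 3 free bases between them (0.414% of windows), and the interferon response letters, GAAA and GAAA with 2 free bases between them (3.44%), matched in no member. The searched motifs were not allowed to differ from these letters, and the matches say only that the letters stand in these windows.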

How the data were processed

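Total RNA of 24 right ventricle samples was measured on 1-colour arrays. The values used in the main fit are, per the headers of the scanner files, processed signals of Agilent Feature Extraction (version 10.7.3.1, per the submitters' processing notes). Outlier spots were left out, spots of a probe were averaged, and log2 signals were set relative to each array's 75th percentile over 16943 probes detected (well above background) on each array. A probe was kept if at least 1 group had it detected on all of its arrays (21037 probes). The kept probe with the highest mean stood for each of 12550 genes. Group means of all 24 arrays were fitted with limma 3.58.1 in R 4.3.3 (lmFit, eBayes), with Benjamini-Hochberg adjustment over all genes and a threshold of 0.05, and the fit was tested on simulated data. The number of arrays limits the precision. The deposited table of the whole series holds linear intensity values that equal the scanner files' net signal within 0.1% on all 62976 spots of every array, and it served as an alternative after the same scaling. Other alternatives were the scaling, background correction, filter, slide, replicate number, each array left out, and, chosen after seeing the data, near-coincident arrays averaged and shams with atrial markers or month 3 left out. The members and lists were chosen with earlier results of these data known. Genes named are the members, up to 4 genes of smallest p per list, 10 genes most like Serpina3n and a few genes fixed by name; 1 gene that the rule names is not reported here. Since no label names separate animals, a p-value reflects only the variation among these samples, which may be technical.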

Additional observations from a re-analysis of the deposited data

Results flagged for a closer look

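In month 1, replicate 4 had Serpina3n at -1.19, farther from the other 4 arrays of its group (-2.25 to -2.02) than Dixon's 95% limit allows. The Serpina3f probe A_55_P2104975 stood at -2.96 in sham replicate 5, whereas the other 9 shams lay between -9.13 and -7.54. These were 2 of 32 groups tested (8 probes in 4 groups), and chance flags about 1 group in 20. The Serpina3g level differed between month 3 and month 2 by 1.79, with all 4 month 3 arrays above all 5 month 2 arrays. The probe was kept only through its month 3 arrays, 3 of 5 month 2 arrays were not well above background, and with normexp the difference was 0.51.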

How the results depend on the processing

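Over all months against sham 3077 genes were called. The number was 4920 with all kept probes (probes, not genes), 2023 with slide as a fixed block, 0 with slide 3 alone (1652 at an unadjusted p under 0.05), 793 with near-coincident arrays averaged, 1942 without the shams with atrial markers and 1390 without month 3. At month 1, where 0 were called, the number was 1 after normexp, 1 in the deposited table, 2 with slide 3 alone, 54 without the atrial shams and 3 without month 3. At month 2 (1826) it was 856 with no filter, 0 with slide 3 alone (713 at an unadjusted p under 0.05), 7 averaged and 715 without the atrial shams. At month 3 (4890) it was 8389 with all kept probes, 1688 with slide 3 alone and 2757 averaged. Month 2 against month 1 (1) gave 2 with all kept probes, 2 without the atrial shams, and 0 after normexp, in the deposited table, with no filter, averaged and without month 3 (1143 to 1756 at an unadjusted p under 0.05). Month 3 against month 2 (2367) gave 1346 in the deposited table, 4757 with all kept probes, 965 with slide as a fixed block, 222 with slide 3 alone and 1039 averaged. The causes were not tested.

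Leaving out 1 array at a time gave 2499 to 3569 calls over all months, 0 to 42 at month 1 (42 without sham replicate 8), 693 to 2387 at month 2 (693 without month 2 replicate 1), 3565 to 5463 at month 3, 0 to 2 for month 2 against month 1, and 1439 to 3775 for month 3 against month 2 (1439 without month 3 replicate 3, 3775 without month 3 replicate 1). The Serpina3n difference over all months stayed between 1.02 and 1.18.

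Replicate numbers do not pair the samples. Same-numbered arrays of different groups had correlations of -0.448 to 0.513, and 3 of 24 arrays correlated best with their own number. The replicate block gave 82 calls at month 1, 3039 at month 2 and 81 for month 2 against month 1.

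Of the calls over all months 44.69% were higher. The share was 25.09% when scaled on the 75th percentile of all probes, 32.03% after quantile normalization, 33.89% after normexp, 62.68% in the deposited table and 54.73% with no filter. The median over all genes at month 3 was -0.04, against -0.20 with the percentile of all probes, -0.13 after quantile normalization, -0.10 after normexp and 0.11 in the deposited table. Among results past the threshold no direction reversed under the alternatives run. Below it, Serpina3f at month 1 (-0.11) was 0.37 with slide as a block, and the difference of Serpina3i between month 3 and month 2 (-0.08) ranged from -0.21 to 0.11 with 1 array left out. With normexp the difference over all months shrank to 0.54 for Serpina3i and 0.27 for Serpina3g, and without month 3 that of Serpina3g was 0.45. The Serpina3f call over all months was lost with near-coincident arrays averaged (0.42, adjusted p = 0.271) and without the atrial shams (0.54, adjusted p = 0.122). Signal near background limits Serpina3g in sham and at months 1 and 2, and 3 of the 7 member probes in all groups.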
